A study of Homo sapiens with 6 samples.

Results

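The genes described here encode the ligands, receptors, antagonists and SMAD proteins of bone morphogenetic protein (BMP) and transforming growth factor beta (TGF-β) signalling, together with the ID genes and 2 MSX genes that respond to it. Members were taken by gene symbol (BMP, GDF, TGFB and activin ligands, their receptors, 5 antagonists, SMAD1 to SMAD9, ID1 to ID4, MSX1 and MSX2). The rule found 54 genes among the 18056 genes of the table. RNA came from human forebrain organoids, which are aggregates that organise themselves into tissue like the dorsal forebrain, grown from the established induced pluripotent stem cell line DYR0100. All organoids are labelled wild type (WT) and come from 1 line. The labels do not say whether replicate numbers mark shared batches or days. In the first group, 3 libraries received vehicle, and in the second, 3 libraries received the amyloid-β peptide Aβ42 at 5 µM, with an exposure of 6 days. The series text calls the 3 replicates of each group independent biological replicates, and the labels do not say whether a replicate is 1 organoid, a pool or a separate differentiation. P-values therefore measure the spread between these libraries.

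BMP and TGF-β family ligands are secreted dimers that bring type II and type I receptors together, both of them kinases. The type I receptor then phosphorylates SMAD proteins, SMAD1, SMAD5 and SMAD9 on the BMP branch and SMAD2 and SMAD3 on the TGF-β and activin branch, which enter the nucleus with SMAD4. ID genes are textbook direct targets of the BMP branch, and ID proteins bind basic helix-loop-helix factors and keep them off DNA, which holds neural progenitors back from differentiation. In the developing forebrain, BMPs from the dorsal midline pattern the cortical hem and the choroid plexus.

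The promoters of the 4 ID genes are shown because these genes are the pathway's best known transcriptional readout and lie at very different levels here. Each sequence is the 250 bases before the RefSeq start of the gene (GRCh38.p14), printed 5′ to 3′ on the strand of the gene. Capitals mark CCAAT on either strand (as CCAAT or ATTGG) and TATAAA on the strand of the gene.
ID1: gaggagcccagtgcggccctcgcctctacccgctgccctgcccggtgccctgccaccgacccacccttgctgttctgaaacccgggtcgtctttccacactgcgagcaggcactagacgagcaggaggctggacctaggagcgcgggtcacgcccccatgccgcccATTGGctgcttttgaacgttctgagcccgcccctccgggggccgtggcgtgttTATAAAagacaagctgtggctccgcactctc
ID2: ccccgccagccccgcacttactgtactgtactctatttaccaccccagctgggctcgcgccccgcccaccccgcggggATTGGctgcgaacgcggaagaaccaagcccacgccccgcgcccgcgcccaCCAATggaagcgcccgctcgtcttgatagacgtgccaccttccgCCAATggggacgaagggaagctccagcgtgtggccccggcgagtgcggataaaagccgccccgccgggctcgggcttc
ID3: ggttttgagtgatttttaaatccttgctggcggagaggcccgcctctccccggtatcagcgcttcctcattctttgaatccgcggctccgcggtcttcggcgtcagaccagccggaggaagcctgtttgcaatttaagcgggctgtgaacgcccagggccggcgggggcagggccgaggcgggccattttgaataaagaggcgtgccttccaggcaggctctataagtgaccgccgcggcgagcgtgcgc
ID4: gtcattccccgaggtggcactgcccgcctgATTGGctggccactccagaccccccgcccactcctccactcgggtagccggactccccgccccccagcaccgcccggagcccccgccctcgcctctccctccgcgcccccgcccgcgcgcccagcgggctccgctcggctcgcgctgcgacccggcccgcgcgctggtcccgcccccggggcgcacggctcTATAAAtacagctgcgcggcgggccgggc
The ID1 window lies at chr20:31605039-31605288, plus strand, the ID2 window at chr2:8681806-8682055, plus strand, the ID3 window at chr1:23559502-23559751, minus strand, and the ID4 window at chr6:19837120-19837369, plus strand. ID1 and ID4 each hold 1 CCAAT and 1 TATAAA, the latter 31 and 29 bases before the start. ID2 holds 3 CCAAT and no TATAAA, and ID3 holds neither motif. The letters GGCGCC, which lie within GC-rich elements bound by BMP-activated SMADs, were found in none of the 4 windows on either strand. Bases outside these windows were not searched. CAGAC, the short SMAD-binding motif, searched on both strands like CAGCTG, occurred once in ID3 and once in ID4, and the E-box CAGCTG once in ID2 and once in ID4. No one of these 5 motifs contains another, and the matches are descriptions. Among all 35116 RefSeq windows of this length, 32.01% held CCAAT, 6.8% TATAAA, 16.38% GGCGCC, 38.0% CAGAC and 13.99% CAGCTG. Windows were listed for 47 of the 54 members. Of their 79 windows, 30 held CCAAT, 8 held TATAAA, 19 held GGCGCC, 27 held CAGAC and 8 held CAGCTG.

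The libraries held 16465390 to 16742958 counts each, and 13842 genes passed the filter on low counts. Of the members, 47 passed it. The other 7 (BMP3, BMP5, GDF2, GDF3, GDF6, GDF10 and ACVRL1) had at most 6 counts in any library and were not tested. Forebrain identity was checked with 8 markers, all of them tested. Together they summed to 994.2 to 1010.6 CPM with vehicle and 946.7 to 1044.3 CPM with Aβ42. Of the 8, 1 was lower with Aβ42 in the fit within replicate number that is described below. LHX2, a regulator of cortical progenitors picked after its values were seen, measured 152, 157 and 158 CPM with vehicle and 155, 161 and 145 CPM with Aβ42. CPM are counts after TMM scaling of every library to one size, and values by library stand in the order of replicates 1, 2 and 3. The microglial markers C1QA, C1QB, TREM2 and TYROBP were at 0 in all 6 libraries, and none of 9 microglial markers passed the filter.

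Libraries were compared within replicate number, a pairing that the labels do not state. In that fit the ligand BMP7, the receptor ACVR1C and SMAD9 rose with Aβ42. The receptors BMPR1A and BMPR2, the ligand GDF11 and the ID genes ID3 and ID4 fell. The sizes that follow are from the main fit, which leaves replicate numbers aside. There BMP7 was 1.23-fold and ACVR1C 2.21-fold of vehicle. BMPR1A was lower by 12.2%, BMPR2 by 13.2%, GDF11 by 13.2%, ID4 by 15.1% and ID3 by 36.0%. No member passed the test of this main fit. With edgeR's quasi-likelihood test, 0 of 47 members had a Benjamini-Hochberg adjusted p under 0.05, against 0.0% of all tested genes, and the smallest adjusted p over all genes was 0.0684. At an unadjusted p under 0.05, 14 members (29.8%) were called, 7 of them higher and 7 lower with Aβ42, against 23.9% of all tested genes (12.4% higher and 11.5% lower). The 3 Aβ42 values and the 3 vehicle values did not overlap for 15 members (31.9%), 6 higher and 9 lower, against 27.0% of all tested genes (13.6% higher and 13.4% lower). On the scale log2(TPM + 1), 12 members (25.5%) had an unadjusted p under 0.05, 4 higher and 8 lower, against 23.7% of all tested genes (7.65% higher and 16.1% lower). In TPM the groups did not overlap for 14 members (29.8%), 2 higher and 12 lower. The share of all tested genes was 27.6% (9.0% higher and 18.6% lower). SMAD4, SMAD5, SMAD7 and MSX2, higher without overlap in CPM, overlapped in TPM. ID4, INHBA and FST, which overlapped in CPM, were lower without overlap in TPM. Below, overlap of the groups of a single gene is judged in CPM. The median log2 fold change of the members, Aβ42 over vehicle, was 0.0031, and that of all tested genes 0.0032. The median size of the change, sign aside, was 0.20 for members and 0.12 for all tested genes. These medians were not matched for expression level, several members had few counts, and the difference was not tested. Of the 47 members, 2 (ACVR1C and GREM1) had an estimated difference of at least 2-fold, against 99 of the 13842 tested genes (0.715%). Both had few reads, at 18 to 62 counts for ACVR1C and 11 to 69 for GREM1.

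Libraries with the same replicate number deviated together across genes (r = 0.18, 0.39 and 0.13 for numbers 1, 2 and 3). Numbers 1 and 3 also correlated with each other (0.15 and 0.18), above the 0.13 between the libraries numbered 3, so only number 2 stood apart. The correlations do not single out the pairing of 1 with 1 and 3 with 3. The labels do not state a pairing. A fit that takes the replicate number as a block, and compares libraries within it, is given beside the main fit. With this block 8 members (17.0%) had an adjusted p under 0.05, against 14.2% of all tested genes. BMP7, SMAD9 and ACVR1C were the 3 higher members, against 7.12% of all tested genes in that direction. BMPR1A, BMPR2, GDF11, ID3 and ID4 were the 5 lower members, against 7.05%. The words rose and fell are kept for genes that passed this blocked test, and the adjusted p of the main fit is given beside them. Aβ42 replicate 2 weighed on these calls. Without it, 11 members (23.4%) passed the test without a block, 4 higher and 7 lower, against 23.1% of all tested genes (11.5% higher and 11.6% lower). In bulk RNA, fewer cells of a type and less RNA per cell cannot be told apart.

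**Figure D1:**
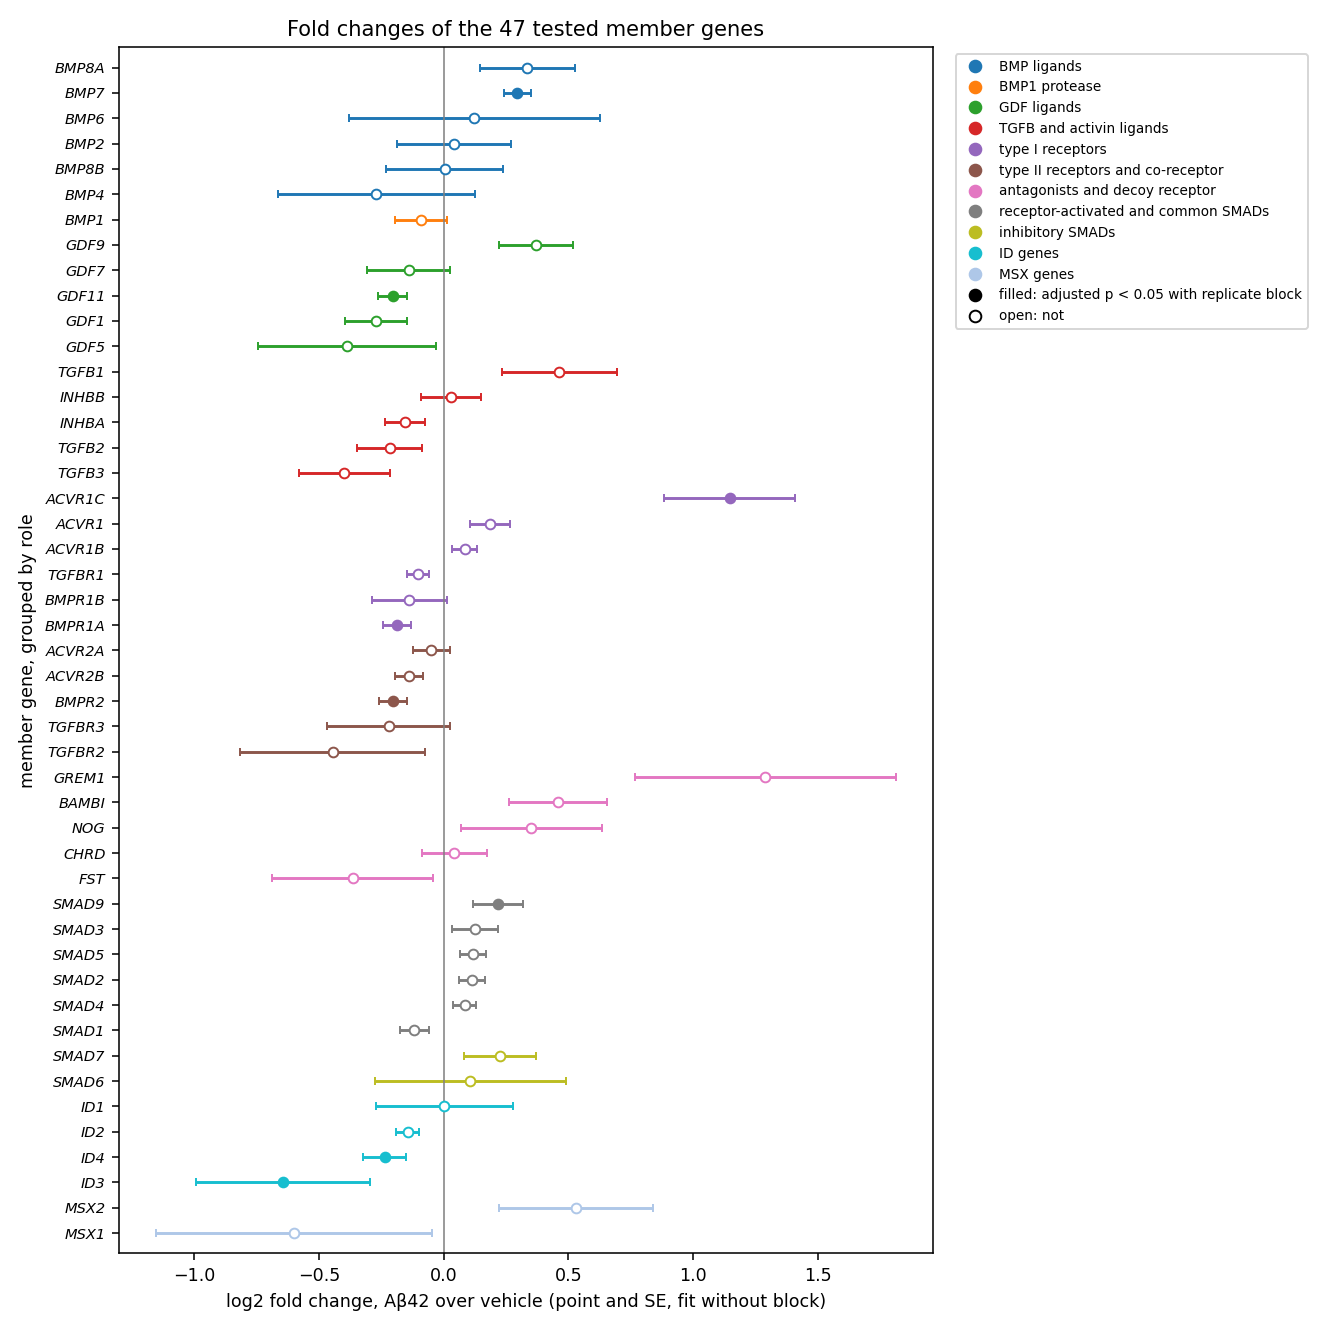
Fold changes (log2, Aβ42 over vehicle, x axis, with SE from the fit without block) of the 47 tested members, grouped by role on the y axis, with filled points for an adjusted p under 0.05 in the fit with the replicate block. The 8 filled points include BMP7, ACVR1C and SMAD9 to the right of 0 and BMPR1A, BMPR2, GDF11, ID3 and ID4 to the left, and the points farthest to the right are ACVR1C and GREM1.

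Among BMP ligands, BMP7 rose and supplied most of the transcripts. BMP7 (gene at chr20:57168753-57266641, minus strand), a ligand expressed at the dorsal midline and in the meninges, measured 70.9, 66.2 and 73.2 CPM with vehicle and 84.8, 84.9 and 88.2 CPM with Aβ42. All 3 Aβ42 libraries lay above all 3 vehicle libraries. The difference was 1.23-fold, a log2 fold change of 0.29 ± 0.054 (SE), with an adjusted p of 0.0684 in the main fit and 0.0025 with the replicate block. BMP7 was also the member of smallest main-fit p. In TPM, which allows genes to be compared, BMP7 averaged 45.9 ± 2.04 TPM with vehicle and 54.6 ± 0.44 TPM with Aβ42 (SD, n = 3) and made up 84.9% to 89.6% of the summed TPM of BMP ligands in each library. That sum was 51.6 to 54.5 TPM with vehicle and 61.4 to 63.2 TPM with Aβ42. Some BMP7 counts were fractional.

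The other 5 tested BMP ligands gave no call. BMP2, BMP4, BMP6, BMP8A and BMP8B each averaged at most 2.44 TPM in either group, and their log2 fold changes ran from -0.27 (BMP4) to 0.34 (BMP8A). BMP4, the ligand most often used to induce dorsal midline fate, measured 0.961, 1.09 and 0.915 CPM with vehicle and 0.488, 1.37 and 0.6 CPM with Aβ42. These are 8 to 23 counts per library, and the groups overlapped. BMP8A and BMP8B are near-identical copies, some of whose counts were fractional, so their separate values are uncertain. BMP1, which is a procollagen protease and not a ligand of the family, measured 10.9, 11.6 and 11.2 CPM with vehicle and 10.1, 11.5 and 10.1 CPM with Aβ42.

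Of the growth and differentiation factors (GDFs), GDF11 fell. GDF11 (chr12:55743122-55757264, plus strand) is a ligand of the activin branch that restrains neurogenesis in several tissues, and it measured 57.5, 63.8 and 61.2 CPM with vehicle and 53.0, 54.2 and 51.2 CPM with Aβ42. The groups did not overlap. Its log2 fold change was -0.20 ± 0.059 (SE), with an adjusted p of 0.0929 in the main fit, 0.0347 with the replicate block and 0.0720 without both libraries numbered 2. An exon of GDF11 overlaps SARNP on the other strand, and whether counting used strand is not given in the sources used here. GDF9, best known from the oocyte, measured 7.81, 5.84 and 7.26 CPM with vehicle and 9.87, 7.66 and 9.48 CPM with Aβ42. Its groups overlapped, with an adjusted p of 0.168 in the main fit, 0.0526 with the block and 0.0299 without Aβ42 replicate 2. An exon of GDF9 overlaps UQCRQ on the other strand. GDF1 did not overlap between groups, at 11.2, 10.9 and 8.66 CPM with vehicle and 8.59, 8.55 and 8.34 CPM with Aβ42, but it shares exons with CERS1 on the same strand, so reads of the pair cannot be told apart. GDF5 and GDF7 gave log2 fold changes of -0.39 and -0.14 with overlapping groups.

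None of the 5 TGF-β and activin ligands passed in either fit. INHBB, a subunit of activin and the ligand gene of highest TPM in this set, measured 14.3, 15.0 and 16.4 CPM with vehicle and 16.7, 12.7 and 17.3 CPM with Aβ42. The groups overlapped, and the log2 fold change of 0.030 ± 0.12 (SE) changed sign on the TPM scale. INHBA, the other activin subunit, had a log2 fold change of -0.16 ± 0.080 (SE), and each of its Aβ42 libraries was below the vehicle library of the same number. TGFB3 was the ligand of these 5 whose groups did not overlap in CPM, while in TPM those of INHBA did not overlap either. TGFB3 measured 3.78, 4.86 and 3.72 CPM with vehicle and 3.17, 3.27 and 2.94 CPM with Aβ42. Its adjusted p was 0.211 in the main fit and 0.148 with the block. TGFB1 had a log2 fold change of 0.46 ± 0.23 (SE) and TGFB2 one of -0.22 ± 0.13 (SE). Without both libraries numbered 2, TGFB1 passed, at a log2 fold change of 0.81 and an adjusted p of 0.0252. An exon of TGFB1 and one of TGFB3 overlap genes on the other strand.

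**Figure D2:**
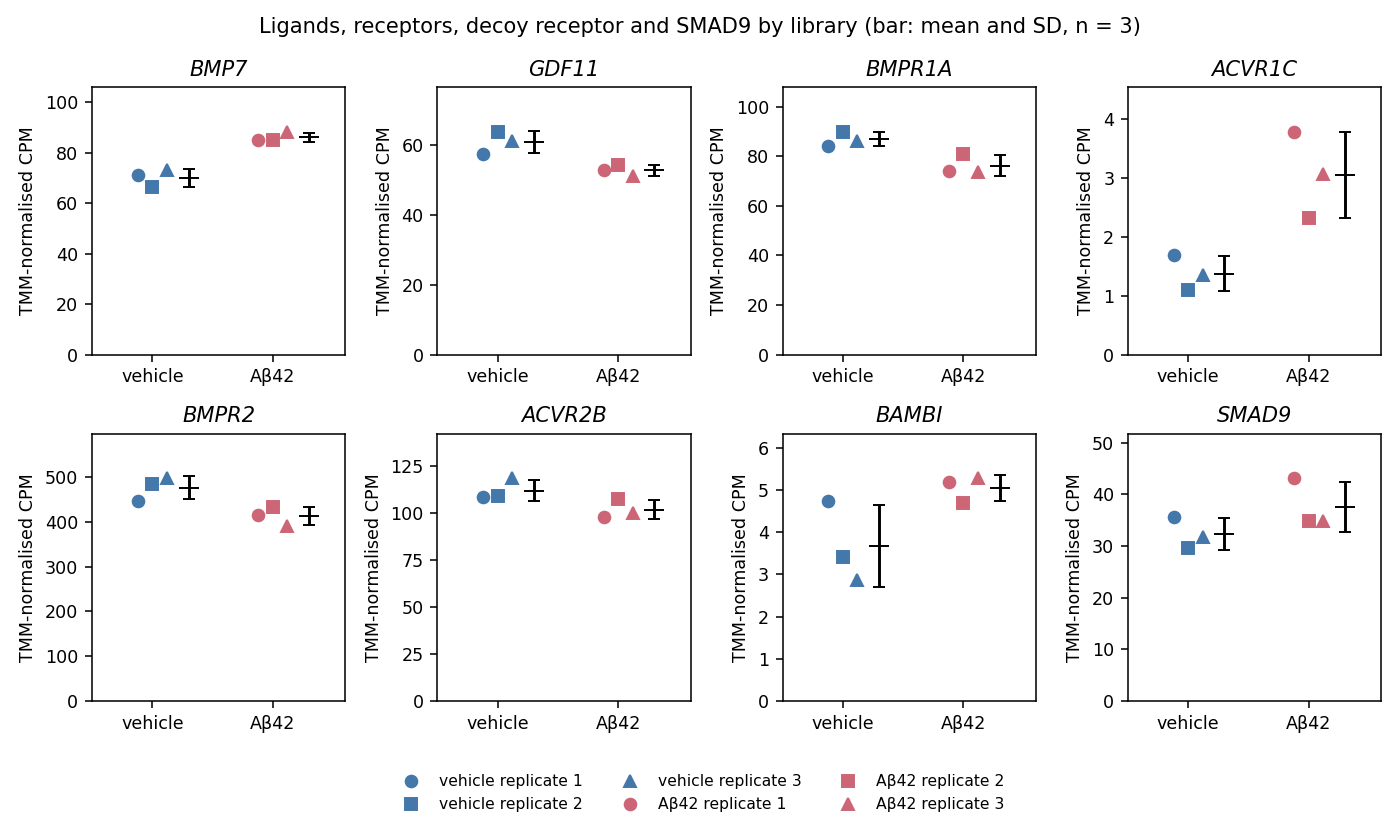
TMM-normalised CPM (y axis, from 0) of 8 members in each of the 6 libraries, with vehicle in blue and Aβ42 in red, one marker shape per replicate number, and the mean and SD of 3 libraries as a black bar. BMP7 and ACVR1C lie higher in all 3 Aβ42 libraries, GDF11, BMPR1A, BMPR2 and ACVR2B lie lower, and the groups of BAMBI and SMAD9 overlap.

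Type I receptors changed in both directions. BMPR1A (chr10:86755763-86932844, plus strand), the main type I receptor for BMPs in neural progenitors, fell. It measured 84.3, 89.9 and 86.2 CPM with vehicle and 74.0, 80.9 and 73.8 CPM with Aβ42, a log2 fold change of -0.19 ± 0.056 (SE) with no overlap. Its adjusted p was 0.0974 in the main fit and 0.03 with the replicate block, and 0.00781 without Aβ42 replicate 2. ACVR1C (chr2:157526767-157628864, minus strand), the receptor ALK7 for nodal and activin ligands, rose from a low level. It measured 1.68, 1.09 and 1.34 CPM with vehicle and 3.78, 2.32 and 3.06 CPM with Aβ42, from 18 to 28 counts with vehicle and 39 to 62 with Aβ42. The fold change was 2.21 (log2 1.15 ± 0.26 (SE)), all Aβ42 libraries were above all vehicle libraries, and the adjusted p was 0.0734 in the main fit and 0.00306 with the block. Relative to the vehicle library of the same number, the log2 ratios were 1.17, 1.08 and 1.19. In TPM it averaged 0.393 ± 0.0808 TPM with vehicle and 0.843 ± 0.205 TPM with Aβ42 (SD, n = 3), the lowest of the tested type I receptors.

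The other type I receptors did not pass in either fit. ACVR1, a receptor for BMPs and activin, measured 61.5, 51.6 and 57.7 CPM with vehicle and 62.3, 60.6 and 71.2 CPM with Aβ42, with overlapping groups and an adjusted p of 0.193. TGFBR1, the TGF-β type I receptor, measured 156, 156 and 150.0 CPM with vehicle and 146, 144 and 139.9 CPM with Aβ42. Its groups did not overlap, with a log2 fold change of -0.10 ± 0.045 (SE) and an adjusted p of 0.201. ACVR1B, the activin receptor and the type I receptor of highest TPM, measured 154, 146 and 154 CPM with vehicle and 164, 152 and 165 CPM with Aβ42, and its groups overlapped. BMPR1B had a log2 fold change of -0.14 ± 0.15 (SE). The summed TPM of the type I receptors was 237.7 to 244.9 with vehicle and 237.4 to 239.4 with Aβ42, and these ranges overlapped.

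All 5 type II receptors and co-receptors had log2 fold changes below 0, except that ACVR2A turned positive without Aβ42 replicate 2, without vehicle replicate 1 or without both libraries numbered 2. Of the 5, BMPR2 fell. BMPR2 (chr2:202376327-202567749, plus strand), the type II receptor for BMPs, measured 447, 485 and 497 CPM with vehicle and 416, 433 and 391 CPM with Aβ42. The groups did not overlap, and the log2 fold change was -0.20 ± 0.056 (SE). The adjusted p was 0.0856 in the main fit, 0.0182 with the replicate block and 0.00841 without Aβ42 replicate 2. ACVR2B, an activin type II receptor, measured 108, 109 and 118 CPM with vehicle and 97.8, 108 and 99.9 CPM with Aβ42, also without overlap. It did not pass in either fit (adjusted p 0.174 in the main fit and 0.115 with the block), and passed without Aβ42 replicate 2 (0.0299) and without both libraries numbered 2 (0.0383). ACVR2A had a log2 fold change of -0.049 ± 0.075 (SE), TGFBR2 of -0.45 ± 0.37 (SE) and the co-receptor TGFBR3 of -0.22 ± 0.25 (SE), all with overlapping groups. The TPM of the 5 genes together was 211.9 to 219.0 with vehicle and 179.9 to 201.0 with Aβ42, and these ranges did not overlap.

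The antagonists and the decoy receptor gave no call after adjustment. BAMBI, a membrane protein that resembles a type I receptor without a kinase and is itself a BMP target, measured 4.75, 3.4 and 2.87 CPM with vehicle and 5.18, 4.69 and 5.28 CPM with Aβ42. Vehicle replicate 1 lay above Aβ42 replicate 2, so the groups overlapped, while each Aβ42 library was above the vehicle library of its number. The log2 fold change was 0.46 ± 0.20 (SE), with an adjusted p of 0.191 in the main fit and 0.0862 with the block. GREM1, a secreted antagonist that binds BMPs, measured 0.661, 0.79 and 1.77 CPM with vehicle and 4.21, 2.55 and 1.14 CPM with Aβ42. Aβ42 replicate 1 was highest, and Aβ42 replicate 3 was below vehicle replicate 3. Its log2 fold change of 1.29 ± 0.52 (SE), the highest of the members, had an adjusted p of 0.185 in the main fit and 0.322 with the block, and ran from 0.78 to 1.85 when 1 library at a time was left out. The other antagonists gave log2 fold changes of 0.35 ± 0.28 (SE) for NOG, 0.043 ± 0.13 (SE) for CHRD and -0.36 ± 0.32 (SE) for FST.

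**Figure D3:**
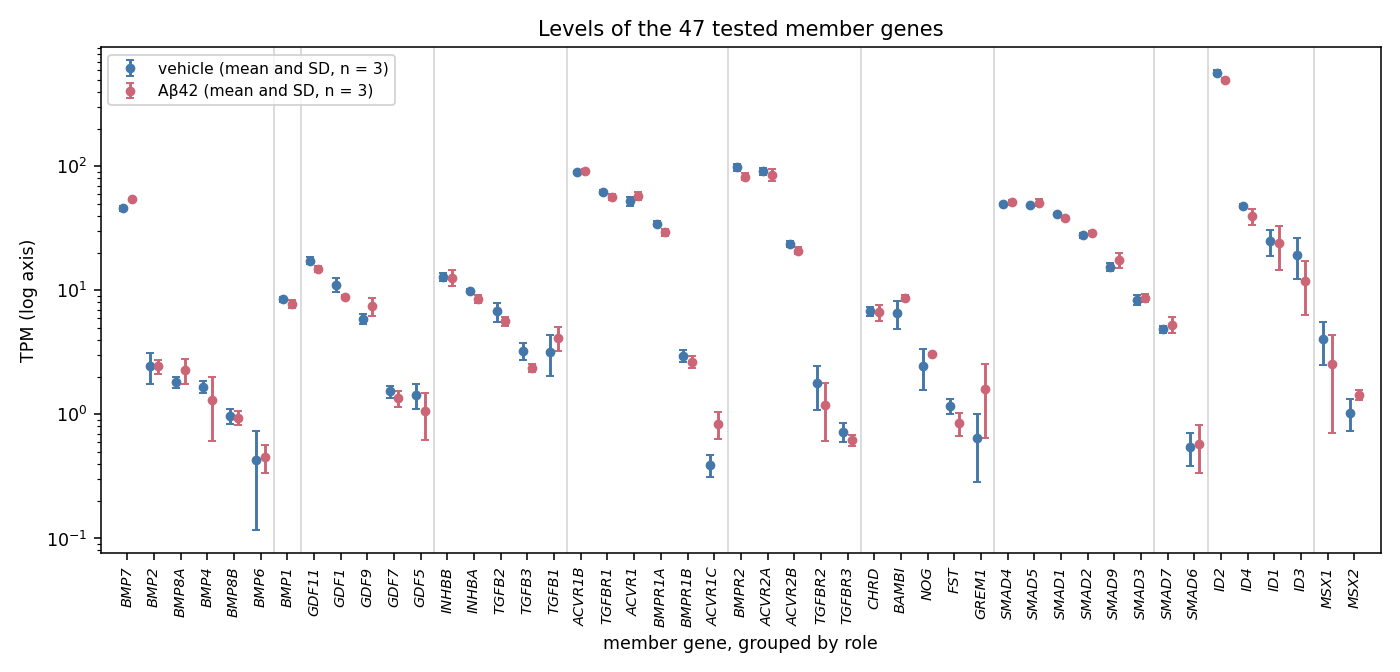
Mean TPM (y axis, log scale) with SD over 3 libraries of each of the 47 tested members, vehicle in blue and Aβ42 in red, ordered by role and by level. ID2 stands highest at 496 to 571 TPM, and the antagonists and every BMP ligand other than BMP7 lie below 10 TPM.

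Log2 fold changes of the 6 receptor-activated and common SMADs ran from -0.12 to 0.22. SMAD9 (chr13:36844831-36920854, minus strand), the least abundant of the BMP-branch SMADs in TPM, rose in the blocked fit and measured 35.7, 29.6 and 31.7 CPM with vehicle and 43.1, 34.8 and 34.8 CPM with Aβ42. Vehicle replicate 1 lay above Aβ42 replicates 2 and 3, but within each replicate number Aβ42 was higher, with log2 ratios of 0.27, 0.23 and 0.13. Its log2 fold change was 0.22 ± 0.10 (SE), with an adjusted p of 0.219 in the main fit and 0.0478 with the block. The block was the only 1 of 15 alternatives in which SMAD9 passed, and the log2 fold change was 0.11 without Aβ42 replicate 1. SMAD5 measured 132, 133 and 133 CPM with vehicle and 154, 139 and 139 CPM with Aβ42, with no overlap and an adjusted p of 0.194 in the main fit and 0.151 with the block. SMAD1, the remaining SMAD of that branch, had a log2 fold change of -0.12 ± 0.059 (SE), with all Aβ42 values below all vehicle values. Its adjusted p was 0.256, and no test compared the direction of SMAD1 with that of SMAD5 or SMAD9.

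SMAD4, the partner shared by both branches and the SMAD of highest TPM, measured 178, 176 and 171 CPM with vehicle and 193, 183 and 181 CPM with Aβ42. Its groups did not overlap, at a log2 fold change of 0.085 ± 0.047 (SE) and an adjusted p of 0.291. SMAD2 and SMAD3, of the TGF-β and activin branch, had log2 fold changes of 0.11 ± 0.053 (SE) and 0.13 ± 0.091 (SE). SMAD2 passed without Aβ42 replicate 2 (adjusted p 0.0344) and not with the block (0.153). The inhibitory SMADs are induced by the pathway and shut it down. SMAD7 measured 5.05, 4.5 and 4.63 CPM with vehicle and 5.3, 5.29 and 6.00 CPM with Aβ42, with no overlap and an adjusted p of 0.361. SMAD6 measured 0.901, 1.22 and 0.671 CPM with vehicle and 1.1, 1.37 and 0.54 CPM with Aβ42, from 9 to 23 counts, with overlapping groups. The direction of SMAD6 depended on which library was left out (-0.18 to 0.40).

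ID3 and ID4 fell in the blocked fit, ID2 lay lower without passing, and ID1 gave no call. ID2 (chr2:8682056-8684461, plus strand), expressed in progenitors and in some cortical neurons, measured 221, 234 and 228 CPM with vehicle and 206, 210.5 and 202 CPM with Aβ42. All Aβ42 libraries lay below all vehicle libraries. The log2 fold change was -0.14 ± 0.045 (SE), with an adjusted p of 0.109 in the main fit and 0.059 with the replicate block, past the threshold in neither. Without Aβ42 replicate 2 its adjusted p was 0.0265. Its exons overlap ID2-AS1 on the other strand.

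ID4 (chr6:19837370-19842197, plus strand), an ID gene of neural progenitors, measured 71.2, 72.2 and 68.2 CPM with vehicle and 57.8, 68.9 and 52.9 CPM with Aβ42. Aβ42 replicate 2 lay above vehicle replicate 3, so the groups overlapped, and the other Aβ42 libraries lay below every vehicle library. The log2 fold change was -0.24 ± 0.086 (SE), with an adjusted p of 0.145 in the main fit, 0.0211 with the block and 0.00194 without Aβ42 replicate 2. It ran from -0.35 to -0.15 when 1 library at a time was left out, nearest to 0 without Aβ42 replicate 3. ID3 (chr1:23557926-23559501, minus strand) had few reads, from 35 to 111 counts, and measured 4.75, 6.75 and 3.23 CPM with vehicle and 2.56, 4.75 and 2.1 CPM with Aβ42. Replicate 2 was the highest library in both groups, and the groups overlapped. Within each replicate number ID3 was lower with Aβ42, with log2 ratios of -0.89, -0.51 and -0.62. The log2 fold change was -0.64 ± 0.35 (SE) in the main fit, with an adjusted p of 0.292. With the block it was -0.66 ± 0.17 (SE), with an adjusted p of 0.0188. Without the block it ran from -1.07 to -0.35 when 1 library at a time was left out, nearest to 0 without vehicle replicate 2 and farthest without Aβ42 replicate 2. Without both libraries numbered 2, in a fit with no block, the adjusted p was 0.0506.

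ID1 (chr20:31605289-31606510, plus strand), the ID gene most used as a readout of BMP signalling, differed by less than its spread. It measured 8.11, 7.48 and 4.82 CPM with vehicle and 5.24, 9.68 and 5.52 CPM with Aβ42, or 79 to 163 counts. The highest library was Aβ42 replicate 2 and the lowest vehicle replicate 3. The log2 fold change was 0.0031 ± 0.27 (SE), and the adjusted p was 0.995 in the main fit and 0.977 with the block. Its direction depended on the setting, from -0.34 to 0.16 when 1 library was left out. No test compared ID1 with the other ID genes. By TPM, ID2 averaged 571 ± 23.7 TPM with vehicle and 496 ± 17.4 TPM with Aβ42 (SD, n = 3), the highest of all members. It made up 83.9% to 88.7% of the summed TPM of the 4 genes, which was 641.3 to 696.3 with vehicle and 540.0 to 612.2 with Aβ42. After ID2 came ID4, at 48.1 ± 1.64 TPM with vehicle and 39.6 ± 5.95 TPM with Aβ42. ID1 averaged 24.8 ± 5.97 TPM with vehicle and 23.9 ± 9.2 TPM with Aβ42 and ID3 19.3 ± 7.01 TPM with vehicle and 11.8 ± 5.49 TPM with Aβ42, and the ID1 and ID3 values overlapped with vehicle. With Aβ42 every ID1 value lay above every ID3 value, which was not tested.

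**Figure D4:**
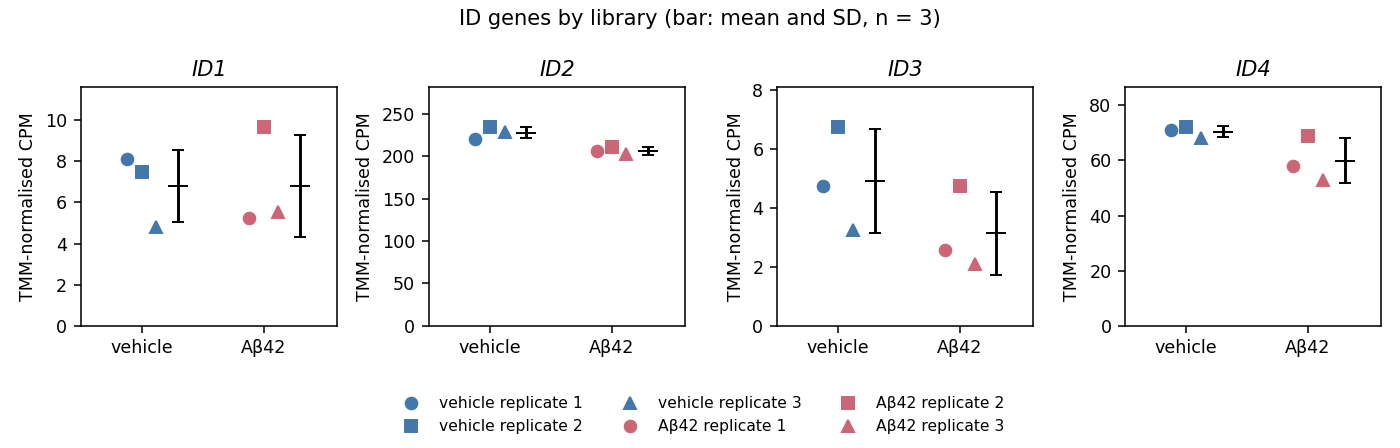
TMM-normalised CPM (y axis, from 0) of ID1, ID2, ID3 and ID4 in each library, vehicle in blue and Aβ42 in red, one marker shape per replicate number, with the mean and SD of 3 libraries as a black bar. ID2 shows no overlap between groups, replicate 2 (squares) is the highest library of both groups for ID2, ID3 and ID4, and the ID1 groups overlap.

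The MSX genes, homeobox factors induced by BMPs at the dorsal midline, were both low. MSX1 measured 2.4, 3.77 and 1.83 CPM with vehicle and 0.427, 2.91 and 1.92 CPM with Aβ42, from 7 to 62 counts. Its lowest library was Aβ42 replicate 1, the groups overlapped, and the log2 fold change was -0.60 ± 0.55 (SE). MSX2 measured 0.601, 0.73 and 1.04 CPM with vehicle and 1.1, 1.25 and 1.08 CPM with Aβ42, from 10 to 21 counts, without overlap. Its log2 fold change was 0.53 ± 0.31 (SE), with an adjusted p of 0.313 in the main fit and 0.294 with the block.

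Replicate 2 was the highest library in both groups for 12 of the 47 members (25.5%), against 18.5% of all tested genes. These 12 were BMP1, BMP4, BMPR1A, GDF11, ID2, ID3, ID4, INHBA, MSX1, SMAD6, TGFB3 and TGFBR2. The choroid plexus transcript TTR, which encodes a carrier of thyroid hormone, showed the same order, at 391, 872 and 451 CPM with vehicle and 449.9, 806 and 354 CPM with Aβ42. The 12 markers of cortical hem and choroid plexus summed to 536.2 to 1072 CPM with vehicle and 451.9 to 978.1 CPM with Aβ42, and TTR made up most of these sums. Of the 11 tested markers, 1 had a log2 fold change above 0 and 10 below, with a median of -0.48. Without vehicle replicate 2 the median was -0.069. The part of these 12 markers in the values of the members was not tested.

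**Figure D5:**
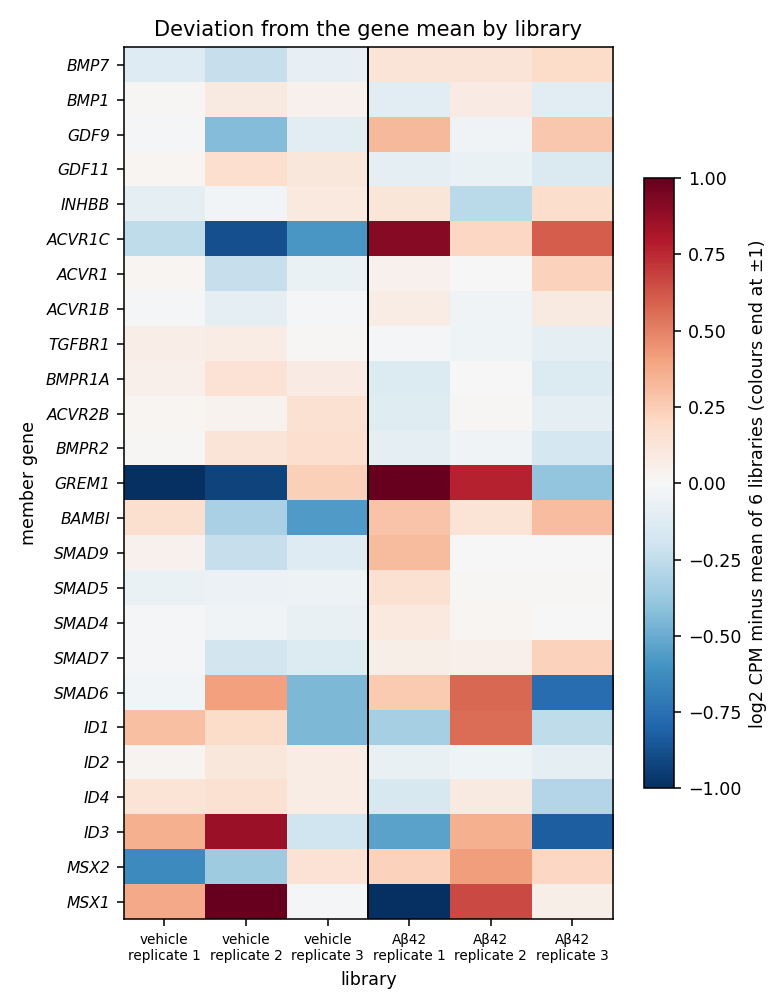
Deviation of log2 CPM from the mean of the 6 libraries (colour, red above and blue below, colours end at 1 either way) for the 25 members named by the rule, in rows by role, with the 3 vehicle columns left of the black line and the 3 Aβ42 columns right of it. GREM1, ACVR1C, ID3, SMAD6 and MSX1 spread widely, ID3 and MSX1 are high in both columns of replicate 2, and the SMAD4 and SMAD5 rows are pale.

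Other genes of the pathway were counted in lists. These lists were chosen with earlier results of these data known, so their counts are descriptions and not tests. Each list's counts stand against the shares of all tested genes, which were 12.4% higher and 11.5% lower at an unadjusted p under 0.05, and 7.12% higher and 7.05% lower at an adjusted p under 0.05 with the block. Of 29 tested extracellular modulators, 4 were higher and 4 lower at an unadjusted p under 0.05, and 3 rose and 2 fell with the replicate block. CHRDL1, a chordin-like BMP antagonist, measured 133, 125 and 136 CPM with vehicle and 186, 134 and 185 CPM with Aβ42 (adjusted p 0.151 in the main fit, 0.00442 with the block). TWSG1, which binds BMPs together with chordin, fell, with a log2 fold change of -0.31 ± 0.075 (SE) (adjusted p 0.0734 and, with the block, 0.00821). FSTL5, a follistatin-like protein, and LTBP4, which binds latent TGF-β in the matrix, rose with the block, at log2 fold changes of 0.27 ± 0.073 (SE) and 0.23 ± 0.086 (SE), with adjusted p of 0.0829 and 0.151 in the main fit and 0.0174 and 0.0114 with the block. LTBP4 passed in 1 of 15 alternatives, the block, and its log2 fold change ran from 0.14 to 0.32 when 1 library at a time was left out, lowest without vehicle replicate 2. The median log2 fold change of this list was 0.083, beside 0.0032 for all tested genes.

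Of 25 tested intracellular modulators, 0 were higher and 4 lower at an unadjusted p under 0.05, and 3 fell with the block. LDLRAD4, a membrane protein that limits TGF-β signalling, measured 84.9, 104 and 90.8 CPM with vehicle and 69.4, 77.8 and 77.7 CPM with Aβ42, with no overlap and a blocked adjusted p of 0.00213. TRIM33, a ubiquitin ligase that acts on SMAD4, had a log2 fold change of -0.21 ± 0.058 (SE) (blocked adjusted p 0.0131). FKBP1A, which binds type I receptors and keeps them inactive without ligand, had one of -0.18 ± 0.062 (SE) (blocked adjusted p 0.0481). Their adjusted p in the main fit was 0.0744, 0.0891 and 0.132. The log2 fold change of FKBP1A ran from -0.23 to -0.11 when 1 library at a time was left out, nearest to 0 without Aβ42 replicate 1. The median of the list was -0.048.

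Among 22 tested genes that respond to TGF-β, 6 were higher and 3 lower at an unadjusted p under 0.05, and 5 rose and 2 fell with the block. THBS1, a matrix protein that also activates latent TGF-β, measured 12.4, 25.4 and 14.1 CPM with vehicle and 3.23, 10.3 and 5.76 CPM with Aβ42, and all Aβ42 values lay below all vehicle values. Its log2 fold change was -1.42 ± 0.49 (SE), with an adjusted p of 0.175 in the main fit and 7.32e-06 with the block. FN1, which encodes fibronectin, measured 31.2, 38.4 and 27.4 CPM with vehicle and 17.4, 28.3 and 20.1 CPM with Aβ42 (adjusted p 0.158 and, with the block, 6.74e-04). BHLHE40, a transcriptional repressor, measured 25.8, 14.8 and 20.7 CPM with vehicle and 38.0, 24.1 and 40.3 CPM with Aβ42 (adjusted p 0.183 and, with the block, 9.70e-05). JUNB, an AP-1 subunit, had a log2 fold change of 0.37 ± 0.12 (SE) (adjusted p 0.115 in the main fit and 0.0171 with the block). The list thus held genes in both directions, with a median of 0.13. Of 7 tested genes that respond to BMP, 1 was called, LMX1A, a hem and roof plate regulator that fell with the block at 2.52, 3.28 and 1.89 CPM with vehicle and 1.46, 2.08 and 1.14 CPM with Aβ42 (adjusted p 0.169 in the main fit, 0.0433 with the block). LMX1A also stands on the list of hem markers. The median of these 7 was 0.17.

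Of 12 tested helix-loop-helix factors that ID proteins bind or oppose, 0 were higher and 5 lower at an unadjusted p under 0.05, 4 fell with the block, and the median log2 fold change was -0.14, beside 11.5% and 7.05% of all tested genes lower by these rules. NHLH1, expressed in newborn neurons, measured 11.2, 12.5 and 11.8 CPM with vehicle and 5.85, 8.49 and 6.66 CPM with Aβ42, a log2 fold change of -0.76 ± 0.14 (SE) (adjusted p 0.0684 in the main fit and 8.75e-04 with the block). NEUROD4 had a log2 fold change of -0.93 ± 0.23 (SE), NEUROD2 of -0.17 ± 0.052 (SE) and TCF12, an E protein that is a direct partner of ID proteins, of -0.24 ± 0.065 (SE). For these 3 the adjusted p was 0.0765, 0.0986 and 0.0856 in the main fit and 0.00457, 0.0385 and 0.005 with the block. NHLH1, NEUROG1 and NEUROG2 also stand on the list of intermediate progenitor markers, and NEUROD6 on that of neurons.

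Markers of several cell types were counted in the same way, and their counts stand against the same shares of all tested genes. The marker lists too were chosen with earlier results known, and their counts are descriptions. Of 10 markers of dividing cells, 9 were lower at an unadjusted p under 0.05 and 9 fell with the block, with a median log2 fold change of -0.49. Their summed level was 866.6 to 1034 CPM with vehicle and 570.5 to 795.2 CPM with Aβ42. Of 6 intermediate progenitor markers, 5 were lower and 4 fell with the block, with a median of -0.79, and they summed to 192.5 to 219.2 CPM with vehicle and 131.4 to 158.0 CPM with Aβ42. Of 11 tested hem and choroid plexus markers, 4 were lower and 5 fell with the block, with a median of -0.48. Of 10 neuronal markers, 5 were lower and 4 fell with the block, with a median of -0.14. Of 8 radial glial markers, 1 was higher and 3 lower, and 3 fell with the block, with a median of 0.0225. Of 7 astrocyte markers, 1 was higher and 1 lower, and 3 fell with the block. The astrocyte median was -0.60, with 6 log2 fold changes below 0 and 1 above. Medians were -0.33 for mesenchymal, 0.031 for forebrain and 0.074 for endothelial markers. Of 7 tested mesenchymal markers, 1 fell with the block, as did 1 of 8 forebrain markers, and of 3 tested endothelial markers 0 did. Of the single tested marker of pluripotent cells, the count called was 0, and the single tested marker of hindbrain and midbrain, EN2, rose with the block at 0.721, 0.304 and 0.671 CPM with vehicle and 2.74, 1.01 and 2.04 CPM with Aβ42 (adjusted p 0.0734 in the main fit and 0.00148 with the block). The part of these markers in the values of the members was not tested.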

How the data were processed

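Polyadenylated RNA of 6 libraries was sequenced after a stranded preparation with PCR, per the labels' protocols. No molecular identifiers are mentioned, so precision covers counting error and the spread between libraries. The submitters' processing notes name FastQC, STAR 2.7.11b, featureCounts 2.0.6 and GRCh38. The annotation, the strand setting and the treatment of shared reads are not given in the sources used here. The authors deposited read counts and TPM values of each gene in 1 table. Only 86.9% to 87.5% of the deposited counts were whole, so they were treated as estimated counts and rounded. The deposited TPM values served to compare levels between genes.

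All genes of the table were filtered with filterByExpr (13842 of 18056 kept), scaled by TMM and tested with the two-sided quasi-likelihood test of edgeR 4.0.16 (limma 3.58.1, R 4.3.3). Benjamini-Hochberg adjustment ran over all tested genes, at a threshold of 0.05. SE was derived from the log2 fold change and its F statistic. The fit was tested on simulated data. Members and lists were chosen with earlier results of these data known. Values by library are given for the ID, MSX and inhibitory SMAD genes and BAMBI, for other members with an unadjusted p under 0.05 or a blocked adjusted p under 0.05, and for the member of highest TPM in each role. Of each further pathway list, up to 4 genes of smallest blocked p among those past the threshold are named. BMP4, LHX2, TTR, GDF1, TGFB3 and EN2 were singled out after their values were seen.

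Pairing by replicate number rests on the data and not on the labels. Across 12186 genes, deviations from the group mean correlated between libraries of the same number (r = 0.18, 0.39 and 0.13 for numbers 1, 2 and 3), each above the minimum of 0.1. They also correlated between numbers 1 and 3 (0.15 and 0.18), and were between -0.30 and -0.22 across numbers 2 and 1 or 3. Deviations from a group mean cancel within the group, so these correlations depend on each other. The minimum therefore does not single out the pairing of 1 with 1 and 3 with 3. Positions and promoter windows are from RefSeq GRCh38.p14, and exon overlaps from GENCODE 29. Alternatives were other normalisations, filters, tools (DESeq2 1.42.0, limma-voom), TPM scales with a pseudocount of 1 or 0.1, the replicate block, and leaving out libraries.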

Additional observations from a re-analysis of the deposited data

How the results depend on the processing

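At an adjusted p under 0.05 the count of members was 0 of 47 in the main fit and 0 with RLE size factors, limma-voom, both TPM scales and a filter at a mean of 10 counts. In these fits 0.0% of all tested genes passed. It was 3 with DESeq2 (2 higher, 1 lower, against 5.71% of all tested genes), 2 with no filter on low counts (both higher, among 54 members, against 2.07%), 8 with the replicate block (14.2%), and 7 without both libraries numbered 2 (16.7%), which was chosen after seeing the data. Leaving out 1 library at a time gave 0 to 11, and 11 arose without Aβ42 replicate 2 (23.1%). The replicate block changed no call of a named member other than the 8 given.

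At an unadjusted p under 0.05 the count was 14 (23.9% of all tested genes), 9 with DESeq2 (18.1%), and 8 to 21 with 1 library left out, 8 without Aβ42 replicate 1 (15.1%) or vehicle replicate 2 (13.7%) and 21 without Aβ42 replicate 2 (37.0%). On log2(TPM + 0.1) it was 13 (23.6%), 4 higher and 9 lower. Non-overlapping members numbered 15 (27.0% of all tested genes), 16 without vehicle replicate 2 (32.6%) to 29 without Aβ42 replicate 2 (53.5%), and 31 without both libraries numbered 2 (59.6%), where fewer values make separation easier. The median log2 fold change of 0.0031 became -0.083 on log2(TPM + 1) and -0.087 on log2(TPM + 0.1), where that of all genes became -0.040 and -0.043, and ran from -0.0896 to 0.01 with 1 library left out. The cause was not tested.

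Of 41 named genes, 3 changed sign under some alternative. ID1 became -0.019 with limma-voom, -0.087 and -0.083 on log2(TPM + 0.1) and log2(TPM + 1), -0.0099 with the replicate block and -0.27 without both libraries numbered 2, and ran from -0.34 to 0.16 with 1 library left out (-0.34 without Aβ42 replicate 2 and -0.19 without vehicle replicate 3). INHBB became -0.027 and -0.024 on the TPM scales and ran from -0.052 to 0.16 with 1 library left out. SMAD6 ran from -0.18 to 0.40 with 1 library left out, at -0.18 without Aβ42 replicate 2 and -0.078 without vehicle replicate 3.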
